A study of Mus musculus with 6 samples.

Results

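The genes for the proteins of the cytosolic ribosome were followed in αTC1 cells treated with an inhibitor of SMNDC1. They were chosen by symbol, as protein-coding genes named Rpsa, Rplp0, Rplp1, Rplp2, or Rps or Rpl with a number and at most 1 further letter a, x, y or l. This gave 80 genes of the 55487 in the count table: 31 of the small (40S) subunit and 49 of the large (60S) subunit. Of the 80 genes, 77 had enough counts to be tested. Some ribosomal proteins have other kinds of names, such as Rps3a1, Rack1 and Fau, and are described separately.

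The RNA came from 6 libraries of αTC1, a mouse glucagonoma line with the character of pancreatic α cells, which make glucagon. In 3 libraries the cells had received G786-1089, and in 3 they had received DMSO. G786-1089 is taken here as compound 1 of the study, an inhibitor of the Tudor domain of the splicing factor SMNDC1. The study calls compound 1 non-selective and also reports effects on the related protein SMN. It further reports more cells with markers of cell death after treatment, and cell death with longer treatment. Effects through SMNDC1 and other effects of the compound cannot be told apart here. Neither the dose nor the time of the sequenced cultures is in the labels. The labels also do not say whether the libraries came from separate cultures. For its cell culture experiments in general, the study states that each replicate divided a shared batch of cells at random between treatments. It adds that the samples of a replicate were handled together. The p-values measure only the spread between these libraries. All 6 share the same line, their column names all begin with WT, and the labels name no deletion or transduced gene.

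Each ribosome holds a set of proteins that are nearly all present as a single copy, so their genes are usually expressed at high and similar levels. Their mRNAs begin with a run of pyrimidines, the 5′ terminal oligopyrimidine (TOP) tract, through which translation follows the activity of the kinase mTOR and the RNA-binding protein Larp1. Excess 5S ribonucleoprotein, made of Rpl5, Rpl11 and 5S rRNA, is known to bind Mdm2 and so to tie ribosome assembly to p53.

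The TOP tract is the sequence feature these genes are known to share, and it is shown here to make it visible at members with different responses. Among the members with a single start site in the RefSeq promoters (GRCm38.p6) that carries a tract, the 4 with the largest decrease after compound 1 and the 4 with a change nearest to 0 are given, leaving out genes with large exon overlaps. Each run covers 10 bases before and 20 bases after the start site in the direction of transcription. Capitals mark the pyrimidine tract from a C near the start site on, and pyrimidines directly before that C are in lower case.
Rpl38 (chr11:114668570-114668599, plus strand): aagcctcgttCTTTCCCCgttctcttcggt
Rplp2 (chr7:141447641-141447670, plus strand): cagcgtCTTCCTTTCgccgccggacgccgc
Rpl14 (chr9:120571507-120571536, plus strand): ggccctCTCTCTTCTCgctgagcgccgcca
Rps6 (chr4:86857348-86857377, minus strand): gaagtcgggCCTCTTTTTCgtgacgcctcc
Rps9 (chr7:3704031-3704060, plus strand): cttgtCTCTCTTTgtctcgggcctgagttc
Rpl15 (chr14:18270967-18270996, minus strand): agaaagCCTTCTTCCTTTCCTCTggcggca
Rpl35 (chr2:39005112-39005141, minus strand): ccgccCTTTCCTCTTTCTCTCgaaccaggc
Rpl27a (chr7:109519185-109519214, plus strand): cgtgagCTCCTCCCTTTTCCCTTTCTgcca

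A tract was counted where at least 5 unbroken pyrimidines, read in the direction of transcription, began with a C within 5 bases of a start site. Further pyrimidines could precede that C. It was found at 28 of the 60 members with a promoter in the table (46.7%) and at 21.2% of all 27025 genes. By subunit, 12 of 23 small subunit genes and 16 of 37 large subunit genes had one. Among members lower after compound 1 the share was 11 of 23, and among those without a significant change 17 of 34, so the shares lay close together. The letters CTTCC, searched on both strands of the 300 bases around each start and partly overlapping with the tracts, were present at 55 of the 60 members (91.7%) and at 73.9% of all genes. The tract depends on the exact start site, and a match is only a match of letters. The table held no promoter for 20 members, among them Rpl29, Rpl30, Rps27a, Rpl21, Rpl17, Rpl8, Rpl23a, Rpl7, Rps29, Rps14, Rpl36, Rplp1, Rpl32, Rps20 and Rpl3.

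The libraries held between 59070705 and 94747943 counts, and every compound 1 library was deeper than every DMSO library. Gcg, the glucagon gene, had a mean of 21190 CPM (normalised counts per 1000000 counts of a library) with DMSO and 3125 CPM with compound 1, and its share of counts moved from 1.97% to 0.335%. Pcsk2 and Chga, of the secretory granule, were also highly expressed and lower after compound 1. Of the other α cell markers, Irx2 was detected at 194 to 303 CPM in group means. The β cell gene Ins1, and Sst and Ppy of other islet cells, were at 0 throughout. In bulk RNA, fewer cells of a kind and less RNA per cell cannot be told apart in any value given here.

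To see how much of the library the ribosomal protein genes took, their counts were summed. They made up 3.39%, 3.34% and 3.31% of counts with DMSO and 3.00%, 2.91% and 3.12% with compound 1. Levels compared between genes per length, in the deposited FPKM (fragments per kilobase of exon, scaled to the library), differed widely among the members. The small subunit genes had a median of 326 FPKM over the 6 libraries with a middle range of 120 to 570 FPKM, and the large subunit genes a median of 217 FPKM with a middle range of 76.8 to 619 FPKM. The highest level of the large subunit was that of Rpl19, which lies near the tunnel exit, with 1613 ± 26.1 FPKM (SD, n = 3) with DMSO and 975 ± 36.4 FPKM with compound 1, and every compound 1 library lay below every DMSO library.

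Reads in exons shared by 2 genes were not counted by the authors' method, and 7 members share more than 40% of their annotated exon bases with another gene. Among them are Rps10 (54.3%), Rpl13a (54.9%) and Rpl24 (71.5%), which had the 3 lowest levels of all tested members at 0.392, 8.96 and 10.99 FPKM. The other 4 were Rpl23a at 46.2 FPKM, Rps25 at 94.2 FPKM, Rpl30 at 97.5 FPKM and Rpl5 at 399 FPKM, the last above the median of its subunit. The part of overlaps in the levels was not tested. In FPKM every annotated exon base counts as length, so that Rps15a with 5395 annotated exon bases came to 40.7 FPKM and Rps16 with 1109 to 576 FPKM, at mean CPM levels within a factor of 3 of each other with DMSO. Levels of these genes are therefore levels of countable reads per annotated length.

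The main question was whether ribosomal protein genes change after compound 1. After compound 1, 36 of the 77 tested members were lower and 1 was higher (edgeR quasi-likelihood test, adjusted p under 0.05 after Benjamini-Hochberg correction over all 15082 tested genes). Over all tested genes, 7.80% were lower and 6.98% higher. The median log2 fold change of the members was -0.41, equal to 75.1% of the DMSO level, and that of all tested genes was 0.04. Of the 77 members, 70 lay below 0. In 54 members every compound 1 library was lower than every DMSO library, and in 2, Rpl3 and Rps10, every one was higher, against 18.5% and 18.2% of all tested genes.

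**Figure D1:**
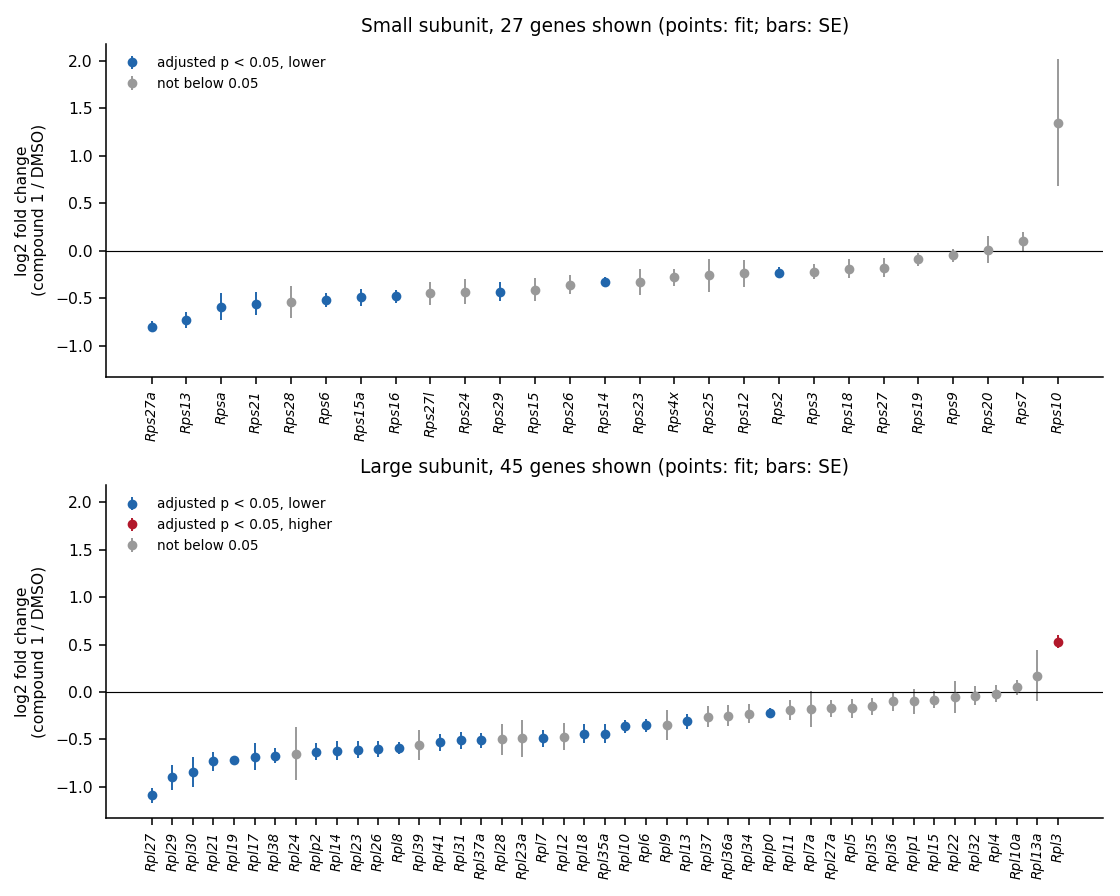
Log2 fold change of compound 1 over DMSO for 27 tested small subunit genes (top) and 45 tested large subunit genes (bottom), ordered by size. Points are the fitted values, bars the standard error, blue and red mark genes lower or higher at an adjusted p under 0.05, and all but 6 points lie below 0.

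Most changes were small. Under the stricter filter used in the study, which asks for an adjusted p up to 0.1 and a log2 fold change of 1 or more in either direction, only Rpl27 was lower and 0 members were higher, while 4.16% of all tested genes were lower and 6.25% higher. The standard error of a member's log2 fold change had a median of 0.1, compared with 0.43 for all tested genes. The main fit has no term for replicates. With libraries of the same letter treated as a replicate block, 24 members and 4.69% of all tested genes were lower. Leaving out the DMSO library A lowered the number of lower members to 23, and the share of all tested genes from 7.80% to 4.43%. With library sizes alone in place of library factors the number was 19, and 5.28% of all tested genes were lower. In that scaling the median of all genes shifted to 0.25, and the members' median of -0.21 lay below it.

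Rpl27 had the largest decrease. This large subunit gene (chromosome 11, 101442298-101445529, plus strand) was at 140, 135 and 124 CPM with compound 1. With DMSO it was at 281, 286 and 284 CPM, above every compound 1 library. The log2 fold change was -1.09 ± 0.08 (SE, adjusted p = 0.000579, edgeR), so that 47.0% of the DMSO level remained.

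Rps27a is made as a fusion of ubiquitin with a small subunit protein. Its counts were 658, 639 and 620 CPM with compound 1 and 1125, 1068 and 1140 CPM with DMSO. The groups did not overlap, with a log2 fold change of -0.80 ± 0.06 (adjusted p = 0.000459, edgeR). Rpl19 fell from 1429, 1389 and 1418 CPM with DMSO to 891, 850 and 827 CPM with compound 1 (log2 fold change -0.72 ± 0.05, adjusted p = 0.000503, edgeR).

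Rps13, a body protein of the small subunit, was at 269, 241 and 261 CPM with compound 1 and at 436, 440 and 404 CPM with DMSO. Its log2 fold change of -0.73 ± 0.08 was shared by Rpl21 at -0.73 ± 0.10, which was at 382, 351 and 306 CPM with compound 1 and at 603, 551 and 563 CPM with DMSO (adjusted p = 0.00203 and 0.00485, edgeR). In both genes the lowest DMSO library was well above the highest compound 1 library.

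Rpl29 and Rpl30 had larger fold changes with a wider spread. Rpl29 was at 98.9, 113 and 129 CPM with compound 1 and at 227, 188 and 222 CPM with DMSO (log2 fold change -0.90 ± 0.13, adjusted p = 0.00688, edgeR). Rpl30 was at 98.6, 79.2 and 78.0 CPM with compound 1 and at 137, 141 and 181 CPM with DMSO (log2 fold change -0.84 ± 0.16, adjusted p = 0.0163, edgeR). Groups did not overlap in either gene, but the call of Rpl30 was lost without the compound 1 library B (adjusted p = 0.0558) or C (adjusted p = 0.0594). Rpl30 shares 55.0% of its exon bases with an overlapping gene, D730044K07Rik.

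Rpl3 was the only member that rose with the library factors used here, while 2 members were higher with library sizes alone. Rpl3 is a protein next to the peptidyl transferase centre, and its gene lies on chromosome 15 (80077791-80091868, minus strand). It was at 501, 523 and 508 CPM with compound 1 and at 371, 333 and 355 CPM with DMSO. Every compound 1 library was above every DMSO library, with a log2 fold change of 0.53 ± 0.07 (adjusted p = 0.00438, edgeR), or 145% of the DMSO level. Over the alternative analyses its log2 fold change lay between 0.49 and 0.74 and its adjusted p stayed at or below 0.0325.

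**Figure D2:**
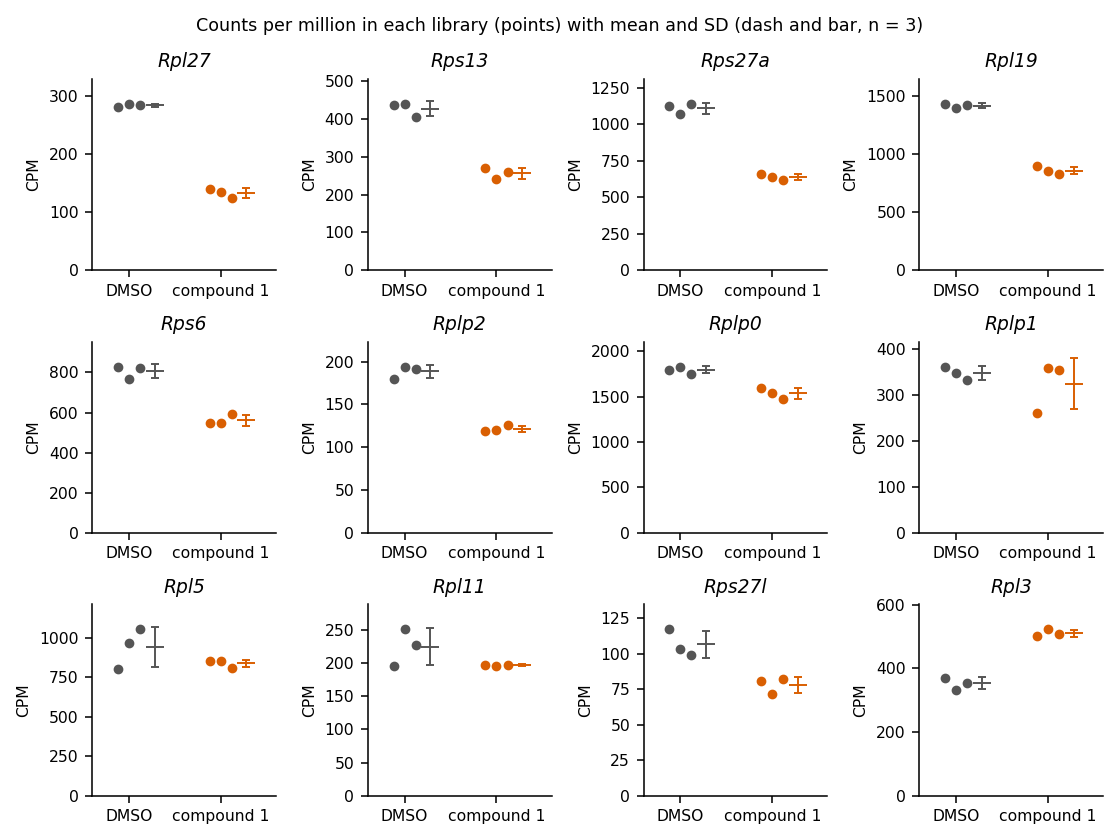
Normalised CPM of 12 members in each library, with points for the 3 libraries of a group and a dash and bar for mean and SD. Rpl27, Rps13, Rps27a, Rpl19, Rps6 and Rplp2 have compound 1 libraries below all DMSO libraries, Rpl3 has them above, and Rplp1, Rpl5 and Rpl11 overlap.

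Rps10 had the highest fitted change, 1.35 ± 0.67, but on 82, 47 and 60 counts with compound 1 and 16, 26 and 12 with DMSO, and it did not pass the test (adjusted p = 0.251, edgeR). When its counts were added to those of its 2 near-identical copies, the log2 fold change was -0.27, so the direction for this gene depended on how its reads were assigned.

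The subunits were then compared. Of the small subunit, 14 of 31 tested genes were lower and 0 higher, and 17 did not pass the test. Of the large subunit, 22 of 46 were lower, 1 was higher and 23 did not pass. The lower shares were 45.2% in the small and 47.8% in the large subunit, against 7.80% of all tested genes. The median log2 fold change was -0.414 in the small and -0.399 in the large subunit, a difference of 0.015. The quartiles were also alike, at -0.54 and -0.22 in the small and at -0.60 and -0.17 in the large subunit. Without the DMSO library A, 9 small and 14 large subunit genes were lower, without B 9 small subunit genes and without C 14 large subunit genes. Of all tested genes, 4.43%, 4.46% and 4.41% were lower without A, B or C.

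Summed counts, which weigh genes by their level, gave a somewhat different picture. The large subunit genes had 1.86, 1.83 and 1.83 times the counts of the small subunit genes with DMSO and 1.92, 1.95 and 1.99 times with compound 1. The groups did not overlap, though the means of 1.84 ± 0.0149 and 1.95 ± 0.0324 (SD, n = 3) were close. Without Rpl3 the ratio was 1.83, 1.80 and 1.80 with DMSO and 1.87, 1.89 and 1.94 with compound 1. Rpl4, a large subunit gene of high level, had a log2 fold change of -0.02 ± 0.09. The share of all counts fell from 1.18% ± 0.00985 to 1.02% ± 0.0288 in the small subunit and from 2.17% ± 0.0313 to 1.99% ± 0.0771 in the large subunit. No test was made of these sums, which have 3 libraries a group.

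**Figure D3:**
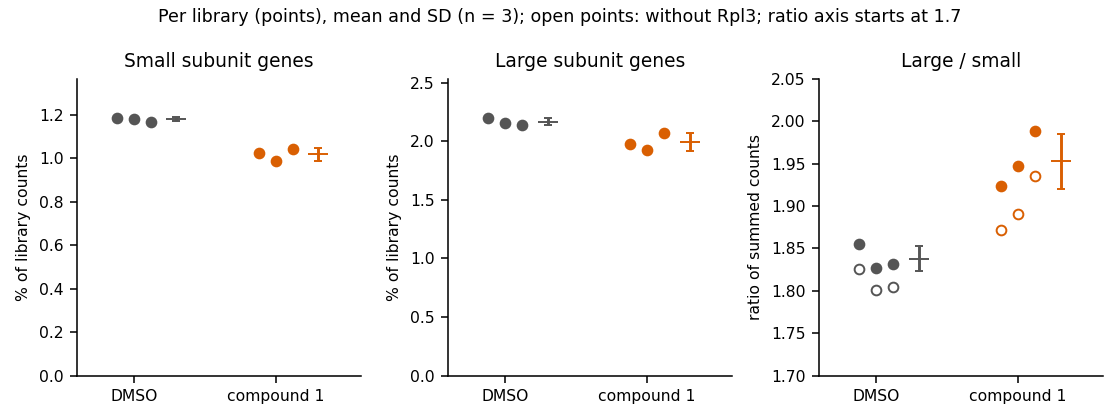
Share of library counts (%) of the small and large subunit genes, and ratio of large to small subunit counts, in each library (points) with mean and SD. Compound 1 libraries have lower shares in both subunits and ratios of 1.92 to 1.99 against 1.83 to 1.86 with DMSO, and open points without Rpl3 keep the groups apart.

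Within the small subunit, genes were grouped by the place of the protein. Over all its tested members 45.2% were lower, against 7.80% of all tested genes. Of the 6 genes of the mRNA exit and platform, 4 were lower and 2 did not pass, with a median of -0.57. Among the 4 were Rps14 (-0.33 ± 0.05), the laminin receptor gene Rpsa (-0.59 ± 0.14) and Rps3a1 (-0.61 ± 0.10), which does not match the symbol rule.

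Of the 10 genes of the body and decoding centre, 5 were lower, among them Rps13 and Rps6 (-0.52 ± 0.07), the substrate of S6 kinase. Of the 10 genes of the head and beak, 3 were lower, Rps27a, Rps16 (-0.48 ± 0.07) and Rps29 (-0.43 ± 0.10), while Rps19 (-0.09 ± 0.07) and Rps20 (0.01 ± 0.14) were close to 0. Rps19 is the gene most often mutated in Diamond-Blackfan anaemia. At the mRNA entry, Rps2 was lower (-0.23 ± 0.06, adjusted p = 0.0450, edgeR) and Rps3 and Rps9 did not pass the test. With offsets for gene length the calls of Rps2 (-0.07, adjusted p = 0.481), Rps29 (-0.15, adjusted p = 0.378), Rps14 (-0.18, adjusted p = 0.108) and Rps3a1 (-0.43, adjusted p = 0.0574) ended (edgeR).

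In the large subunit, the genes of the stalk that recruits translation factors did not move alike. Rplp2 was lower, at 119, 120 and 126 CPM with compound 1 against 180, 194 and 191 CPM with DMSO (log2 fold change -0.63 ± 0.09, adjusted p = 0.00484, edgeR). Its partner Rplp1 was at 261, 358 and 355 CPM against 362, 348 and 332 CPM, so that the groups overlapped (-0.10 ± 0.13, adjusted p = 0.702, edgeR). Rplp0, the base of the stalk, was at 1595, 1546 and 1474 CPM against 1800, 1833 and 1756 CPM, a small change without overlap (-0.22 ± 0.05, adjusted p = 0.0285, edgeR). That call was lost in 12 of 21 alternative analyses, among them the one with offsets for gene length (-0.09, adjusted p = 0.317) and each analysis without 1 library except the one without the compound 1 library A. Whether Rplp1 and Rplp2 differed in their response was not tested.

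Rpl5 and Rpl11, which enter the ribosome with 5S rRNA, did not pass the test. Rpl5 was at 851, 851 and 810 CPM with compound 1 and at 805, 964 and 1054 CPM with DMSO (-0.17 ± 0.10, adjusted p = 0.339, edgeR). Rpl11 was at 198, 197 and 198 CPM with compound 1 and at 196, 252 and 228 CPM with DMSO (-0.19 ± 0.11, adjusted p = 0.312, edgeR). In both, the DMSO libraries were spread widely and reached down to the compound 1 libraries.

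Next to the peptidyl transferase centre, Rpl8 (-0.59 ± 0.06) and Rpl10 (-0.36 ± 0.07) were lower where Rpl3 was higher, and the call of Rpl10 ended with offsets for gene length (-0.17, adjusted p = 0.160, edgeR). Over all tested large subunit genes 47.8% were lower, against 7.80% of all tested genes. Of the 9 genes of the exit tunnel and its port, 4 were lower, Rpl19, Rpl17 (-0.68 ± 0.14), Rpl26 (-0.60 ± 0.08) and Rpl31 (-0.51 ± 0.09). Rpl35 (-0.15 ± 0.09) and Rpl22 (-0.05 ± 0.17) of the same group did not pass the test, nor did Rpl4.

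The paralogs with a name ending in l were mostly silent. Rpl10l and Rpl39l, known from the testis, had 0 counts in all libraries, and Rpl3l, known from muscle, had 66 counts in the DMSO library C and 0 elsewhere. A count of 0 allows up to 3 counts in a library. Rps27l, a paralog of Rps27 known as a p53 target, was at 80.6, 71.7 and 82.3 CPM with compound 1 and at 117, 103 and 99.1 CPM with DMSO. The groups did not overlap, but the change did not pass the test (log2 fold change -0.45 ± 0.12, adjusted p = 0.0537, edgeR), although it did in 6 of 21 alternative analyses, DESeq2 among them (adjusted p = 0.00225). Rps27 was at -0.18 ± 0.10.

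The lower counts were not limited to ribosomal protein genes, since other short and highly expressed genes were often lower after compound 1. Of the other protein-coding genes with under 1000 annotated exon bases and a mean of at least 100 CPM, 87 of 147 (59.2%) were lower, with a median log2 fold change of -0.51. The members in the same class had 18 of 32 lower (56.2%) and a median of -0.42. From 1000 to under 2000 exon bases, 35.1% of 641 other genes and 52.0% of 25 members were lower, with medians of -0.27 and -0.33. From 2000 to under 4000 bases there were only 5 members. With offsets that remove the trend of each library with gene length, 24 of the 36 lower members passed the test again. Of all tested genes, 7.73% were lower with these offsets. The subunit medians moved to -0.17 in the small and -0.24 in the large subunit. Rpl27 (-0.89), Rpl21 (-0.76) and Rps15a (-0.76) then had the largest decreases. The part of gene length in the members' change was not tested beyond these values. Within the members, change and exon length had a Spearman's rho of 0.23 over 77 genes that share the same libraries.

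**Figure D4:**
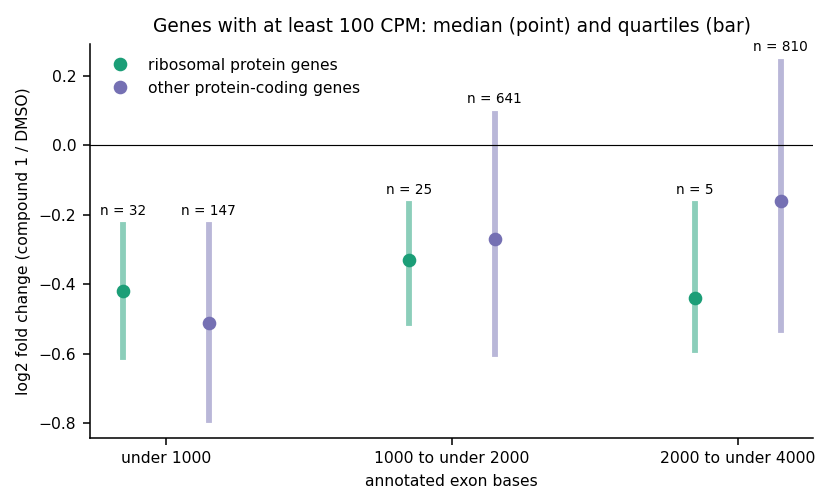
Log2 fold change of ribosomal protein genes and other protein-coding genes with at least 100 CPM, by annotated exon bases. Points are medians and bars the quartiles, n is the number of genes, and below 1000 bases the median of the members is -0.42 and that of the other genes -0.51.

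Ribosomal protein genes have many processed pseudogenes, copies of the mRNA inserted elsewhere in the genome. With at least 95% identity over at least 100 bases and over 50% of the copy, 643 annotated genes were near-identical copies of 76 members, and 604 of them had counts. Their counts came to 18.5% of those of the members, and in 15 members to more than 20% of their own. The highest shares were 730.5% for Rps10, 142% for Rpl29 and 128.6% for Rpl24, and Rplp0 had 79.4%. Of 318 genes named as pseudogenes of members, 168 could be tested. Of these, 7 (4.17%) were lower and 1 was higher, fewer than the 7.80% and 6.98% of all tested genes. Of these 8, 7 had a parent called in the same direction, and the exception was Rpl36a-ps3 (-0.70 ± 0.16), whose parent Rpl36a was at -0.25 ± 0.11. Among the 42 pseudogenes with at least 10 CPM, 36 had the sign of their parent, with a Spearman's rho of 0.81 between them in the same libraries.

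**Figure D5:**
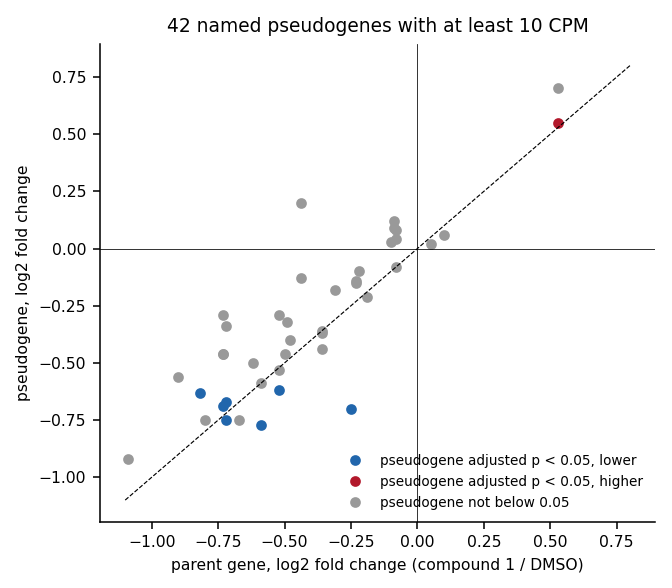
Log2 fold change of 42 named pseudogenes with at least 10 CPM against that of the parent gene. Each point is 1 pseudogene, the dashed line marks equal change, and Rpl3-ps1 (red) lies with its parent Rpl3 at 0.55 and 0.53.

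How little such copies differ is shown by the sequences of Rpl3 and Rpl19 beside a copy of each, from the GENCODE vM21 transcripts. Rpl3-ps1 (chromosome X, 13202571-13203780, plus strand) differs from the Rpl3 mRNA at 2 of 1210 bases, and the lines give coding bases 42 to 71 around the first difference. Rpl19-ps11 (chromosome 8, 19492936-19493526, plus strand) differs from Rpl19 (chromosome 11, 98026710-98030492, plus strand) at 1 of 591 bases, shown in coding bases 176 to 205. Capitals mark the differing base.
Rpl3: gggcttcctgcctcgCaagcgcagcagccg
Rpl3-ps1: gggcttcctgcctcgAaagcgcagcagccg
Rpl19: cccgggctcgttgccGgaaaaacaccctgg
Rpl19-ps11: cccgggctcgttgccAgaaaaacaccctgg

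The longest stretch without a difference was 728 bases in the Rpl3 pair and 400 bases in the Rpl19 pair, longer than a read of 100 bases. Rps6-ps4 was identical to the Rps6 mRNA over all 750 aligned bases. Rpl3-ps1 was at 72.7, 71.6 and 73.0 CPM with compound 1 and at 50.04, 46.5 and 51.7 CPM with DMSO (0.55 ± 0.12, adjusted p = 0.0256, edgeR). Rps6-ps4 was at 91.4, 89.7 and 91.8 CPM against 143, 134 and 142 CPM (-0.62 ± 0.09, adjusted p = 0.00688, edgeR). Whether these reads came from the copies or from the parent mRNA was not tested, and counts of parent and copy should be read as uncertain. With the counts of each member and its copies summed, 14 small and 21 large subunit genes were lower and Rpl3 was again higher (0.53). Of all tested genes, 8.09% were lower with these sums.

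The other ribosomal proteins were described from a list of 7 genes, of which 1 was lower and 1 higher, beside 7.80% and 6.98% of all tested genes. Rack1, a scaffold on the small subunit, was lower (-0.47 ± 0.07, adjusted p = 0.00795, edgeR). Rpl22l1, the paralog of Rpl22, was higher, with 33.8 CPM in the compound 1 mean and 14.9 CPM in the DMSO mean (1.18 ± 0.19, adjusted p = 0.00900, edgeR). The remaining 5 did not pass the test, among them Fau (-0.35 ± 0.11), made as a fusion of a ubiquitin-like protein with a small subunit protein.

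The lists of ribosome assembly factors had medians above 0, as did the tested protein-coding genes that are no member, with 0.10. Beside the counts below stand 7.80% lower and 6.98% higher over all tested genes. Of 12 small subunit assembly factors 3 were higher and 0 lower, with a median of 0.58, and these were Nob1 (1.72 ± 0.20), the nuclease that finishes 18S rRNA, Wdr43 (1.13 ± 0.24) and Tsr3 (0.77 ± 0.13). Of 18 large subunit factors 4 were higher, Ppan, Nmd3, Wdr12 and Pes1, and 2 were lower, Bop1 (-0.82 ± 0.12) and Eif6 (-0.50 ± 0.06), with a median of 0.44. Of 8 tested chaperones of ribosomal proteins, Naca and Btf3, the subunits of the nascent polypeptide-associated complex, were lower (-0.39 ± 0.07 and -0.32 ± 0.07). Of 12 RNA polymerase I genes only Taf1a passed the test (1.38 ± 0.32). With offsets for gene length Nmd3 (0.33, adjusted p = 0.196), Wdr12 (0.22, adjusted p = 0.435) and Btf3 (-0.18, adjusted p = 0.135) no longer passed (edgeR).

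Among 16 regulators of TOP mRNAs and mTORC1, 2 were higher and 0 lower, beside 6.98% and 7.80% of all tested genes. Eif4ebp1, which holds back cap-dependent translation, was higher (0.99 ± 0.08, adjusted p = 0.000642, edgeR), as was the mTORC1 inhibitor Sesn2 (1.18 ± 0.13, adjusted p = 0.00229, edgeR). Larp1 (-0.21 ± 0.54) and Mtor (-0.25 ± 0.37) had low counts and did not pass. Of the 4 p53 genes 3 were higher. Mdm2 rose from 64.8 to 225 CPM in group means (1.79 ± 0.09, adjusted p = 0.000174, edgeR), and Cdkn1a (1.83 ± 0.14) and Mdm4 (1.93 ± 0.33) rose as well. Trp53 was at 0.65 ± 0.23 and did not pass the test.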

How the data were processed

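RNA of 6 αTC1 libraries was measured by Smart-seq2, primed at the poly(A) tail and without strand, in 100 bp paired-end reads. The authors deposited counts, obtained with STAR on GRCm38 and the basic Ensembl annotation in Union mode, without secondary alignments, summed per gene and not normalized. Reads in shared exons are lost this way, and multi-mapped reads can fall on copies. The authors also deposited FPKM values, scaled per kilobase and between libraries. All 80 members matched GENCODE vM21 by identifier, with the same coordinates, and this annotation gave lengths, overlaps and copies.

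Genes passing filterByExpr (minimum count 10, total 15) were tested with edgeR 4.0.16 (TMM, quasi-likelihood) in R 4.3.3, with Benjamini-Hochberg adjustment and a call under 0.05. CPM use TMM library sizes. The SE is the absolute log2 fold change over the square root of F. Copies were found with blastn 2.17.0. The edgeR step was tested on simulated data. At this depth counting error is small except for genes with few counts. The smallest p of an exact permutation test is 0.1 with 3 libraries per group.

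Values in every library are given for the 8 called members with the largest decrease, every called member that rose, paralogs ending in l, the P stalk, Rpl5 and Rpl11, and the highest FPKM of each subunit. Some of these genes are not reported here by name, in text or figures, but are in all counts, medians and sums. Rps10, Rps6, the pseudogenes and genes named within lists were added for their values. Members and lists were chosen with earlier results of these data known, and the lists come from general knowledge. Alternatives were DESeq2 1.42.0, limma-trend 3.58.1 on log2 FPKM, other scalings and filters, offsets for length or GC content, thinned counts, summed copies, members without overlaps, a replicate block and each library left out. Python 3.11.15 with pandas 2.3.3 and matplotlib 3.10.9 drew the figures.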

Additional observations from a re-analysis of the deposited data

How the results depend on the processing

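With library sizes alone, 19 members were lower and 2 higher, 8 of the small and 11 of the large subunit, with medians of -0.207 and -0.194. With gene length offsets 9 small subunit genes and 7.73% of all tested genes were lower. The medians were -0.171 and -0.241, so that the large subunit lay lower by -0.070. The columns carry letters and no replicate numbers, so the letters served as the replicate block. Deviations of same-letter libraries over all tested genes correlated at 0.015, 0.003 and 0.025, so no pairing by letter was seen. The study states that the samples of a replicate were handled together, but no letter is tied to a replicate number. Whether same-letter libraries were handled together was not tested. The replicate block left 24 lower members, 14 of the large subunit, and 4.69% of all tested genes were lower. Under it the calls of Rpl30 (adjusted p = 0.0590), Rplp0 (0.0809), Rps2 (0.115), Rps29 (0.1001), Rps15a (0.0517), Rpl10 (0.0624), Rpl17 (0.0575), Ppan (0.0506), Nmd3 (0.0740), Wdr12 (0.0719), Wdr43 (0.0576), Naca (0.0579), Btf3 (0.0835) and Taf1a (0.0581) were among those lost. The replicate block with length offsets left 11, 5 small and 6 large, and 4.11% of all tested genes were lower. The medians were -0.175 and -0.242, with a difference of -0.067. The filter of the study left 1 lower member, 0 of the small and 1 of the large subunit, and 0 higher. Without a minimum, limma-trend on log2(FPKM + 1) gave a large subunit median of -0.360 and a difference of 0.066, and without overlapping members that median was -0.357. Leaving out each library in turn gave 23 to 28 lower members, 9 to 12 small and 14 to 17 large, and 1 higher, with small subunit medians from -0.403 to -0.347, large subunit medians from -0.417 to -0.381 and differences from -0.044 to 0.016. With 1 library left out, 4.41% to 5.91% of all tested genes were lower. The causes were not tested, apart from the fewer libraries. Of the 16 genes followed singly, 0 reversed a call, Rpl27, Rps27a, Rpl21, Rps13, Rpl19 and Rpl3 were among those that kept theirs in all 21 alternatives, and Rpl29 and Rplp2 missed the threshold with the replicate block and length offsets together (adjusted p = 0.0553 and 0.0617).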
